A study of Mus musculus with 20 samples.

Results

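The effect of a guide RNA against Hira on liver gene expression was measured as the average over 3 weeks and 6 months after delivery. The comparison used all 20 libraries of the series, 10 with the HIRA guide and 10 with the Rosa26 guide, and every gene with at least 10 counts in total. The animals were wildtype C57BL/6 mice that were 6 months old at injection and are labelled female. The paper gives males in its text and females in a legend. Both arms received an AAV8 vector that expresses the Cas9 of Staphylococcus aureus from the Tbg promoter, which is active in hepatocytes, together with a guide RNA from a U6 promoter, so that Cas9 and a cut in the genome were common to treated and control livers. The 4 groups of 5 mice were Rosa26 at 3 weeks, HIRA at 3 weeks, Rosa26 at 6 months and HIRA at 6 months. RNA came from whole liver tissue, so cells other than hepatocytes, which the vector was not meant to edit, contributed to every value. In such bulk tissue, fewer cells of a type and less RNA per cell cannot be told apart.

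HIRA is the core subunit of a histone chaperone that works with UBN1, CABIN1 and ASF1A. Unlike the chaperones that follow the replication fork, it supplies H3.3, a replacement form of histone H3, wherever transcription has displaced nucleosomes. Hepatocytes in the adult liver seldom divide and depend on this route for new histones, while they secrete most plasma proteins and carry out bile acid, amino acid and drug metabolism.

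The libraries held 19916430 to 24079736 counts, and 22867 genes were tested. Markers of hepatocytes (15 genes such as Alb) summed to 97100 to 183000 CPM (counts relative to the TMM-adjusted library size) in every library. The library HIRA 6 months replicate 5 went against its label. It had 2041 counts on genes of the Y chromosome, where the other 19 libraries had 0 to 13, and 9 counts of Xist, where the others had 6286 to 8436. Its male-biased liver genes summed to 5860 CPM against 414 to 1150 in the others, and its adipocyte markers to 72.3 CPM against 5.53 to 10.9. Its mitochondrially encoded genes summed to 65500 CPM, the highest of its group, where the other groups spanned 28200 to 45300 CPM. The library was kept, and the results are also given without it.

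Averaged over both times, 600 genes differed between the arms at a false discovery rate (FDR) of 0.05, which is called a change here. They were 2.62% of the genes tested, with 313 higher (1.37%) and 287 lower (1.26%) in livers with the HIRA guide. Most of these changes were small. The median absolute log2 fold change of the called genes was 0.44, 345 of them (57.5%) lay at 0.5 or less, and 496 (82.7%) lay at 1 or less. Only 104 genes (0.455%) were also past an absolute log2 fold change of 1, and of these 77 were higher and 27 lower. Genes were tested by edgeR (quasi-likelihood F test) with time as an additive term, and adjusted p-values are Benjamini-Hochberg values from this test unless another tool is named. Each library came from a separate mouse as far as the groups of 5 mice describe it, so the p-values measure the spread between these animals. Without HIRA 6 months replicate 5, 799 of 22703 genes (3.52%) were called, 399 higher and 400 lower, and 549 of the 600 were among them. Without Rosa26 6 months replicate 4, 391 genes were called, and 385 of these were among the 600. With the deposited FPKM values in place of counts (limma on log2(FPKM + 1)), 434 genes were called and the balance moved toward higher genes, with 277 higher (63.8%) and 157 lower.

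**Figure D1:**
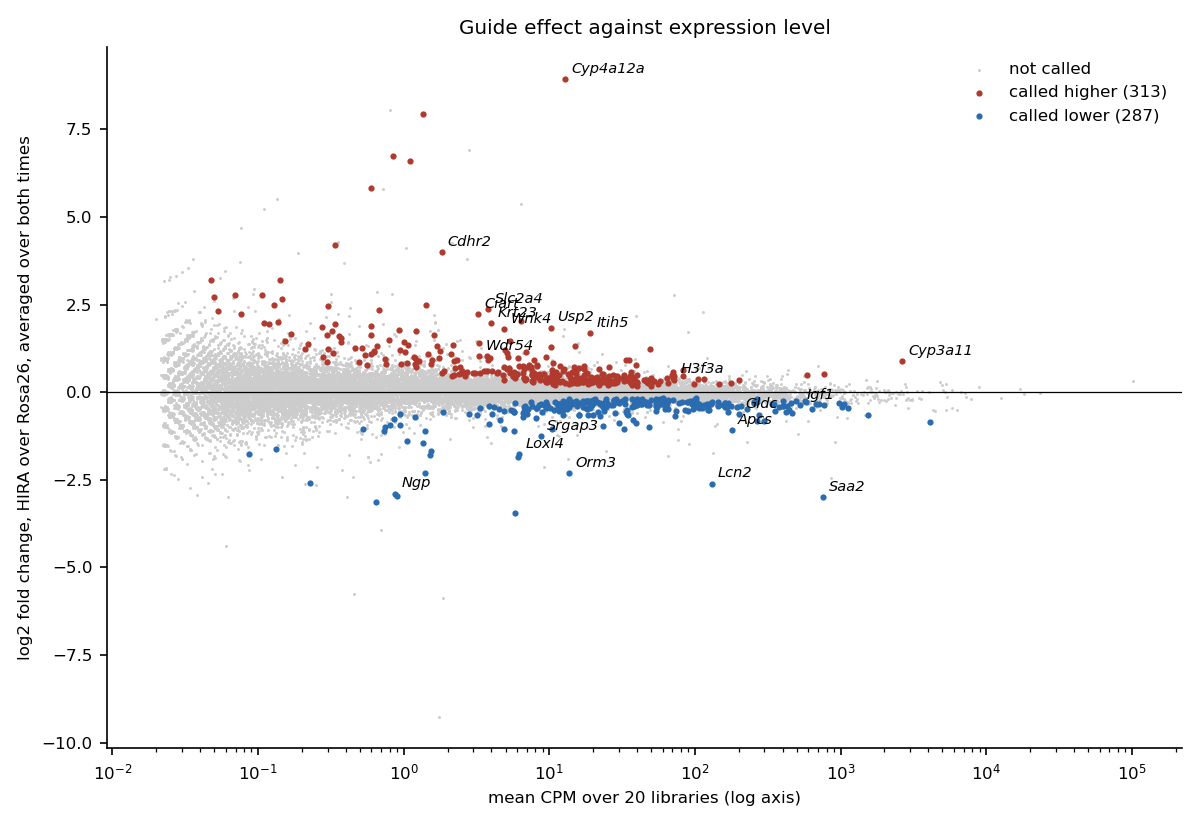
Log2 fold change of the HIRA guide against the Rosa26 guide, averaged over both times, against the mean CPM over 20 libraries (log axis) for the 22867 genes tested, with called higher genes in red and called lower genes in blue. Genes of 100 CPM or more hold 8 of the 313 higher genes and 70 of the 287 lower genes.

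The transcript of Hira itself did not pass the threshold on average over both times. In the Rosa26 livers Hira (ENSMUSG00000022702.16, chromosome 16, 18877037 to 18970309, GRCm38) was at 6.49, 8.54, 7.30, 6.04 and 6.33 CPM in replicates 1 to 5 at 3 weeks and at 5.63, 7.32, 6.07, 6.07 and 4.82 CPM at 6 months. In the HIRA livers it was at 5.81, 5.95, 4.36, 4.55 and 4.15 CPM at 3 weeks and at 5.32, 4.96, 5.64, 5.48 and 6.51 CPM at 6 months. The arms did not overlap at 3 weeks and overlapped at 6 months. Over both times Hira was at 6.46 ± 1.03 CPM (SD, n = 10) with the Rosa26 guide and at 5.27 ± 0.757 CPM (SD, n = 10) with the HIRA guide. The log2 fold change was -0.29 ± 0.10 (SE), which missed the threshold (adjusted p = 0.145), with -0.48 at 3 weeks (adjusted p = 0.197) and -0.10 at 6 months (adjusted p = 0.794). Without HIRA 6 months replicate 5 it was -0.33 (adjusted p = 0.0782), and DESeq2 without that library called it lower (-0.34, adjusted p = 0.0207). A 2-sided exact permutation test within time gave p = 0.0107, where the smallest value it could give was 3.15e-05. A guide that introduces small insertions or deletions does not have to lower the amount of transcript, so this level does not measure how many cells were edited.

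Of the HIRA complex and its histone, 1 of 7 genes was called, beside 2.62% over all genes. This was H3f3a (ENSMUSG00000060743.12, chromosome 1, 180800832 to 180813943), which rose and which encodes H3.3, the histone that HIRA deposits. H3f3a was at 70.9, 60.2, 60.7, 66.3 and 61.7 CPM in the Rosa26 livers at 3 weeks and at 87.1, 79.3, 83.8, 82.5 and 84.4 CPM in the HIRA livers. At 6 months H3f3a was at 64.5, 59.5, 59.2, 64.9 and 63.7 CPM with the Rosa26 guide and at 78.8, 91.5, 73.3, 74.4 and 72.5 CPM with the HIRA guide. Every HIRA library lay above every Rosa26 library at both times, including HIRA 6 months replicate 5. H3f3a rose by 0.35 ± 0.05 on the log2 scale (SE, adjusted p = 0.000845), with 0.38 at 3 weeks and 0.32 at 6 months. H3f3b, the other gene for the same protein, was at -0.11 and was not called, nor were the partners Ubn1 (0.07), Ubn2 (0.07), Cabin1 (-0.02) and Asf1a (0.12). H3f3a has processed copies in the genome, so its level depends on how reads that match several places were counted. None of 16 other histone chaperone genes and none of 8 genes for other replacement histones was called, with medians of 0.04 and 0.08 beside 0.018 over all genes tested. H1fx, a linker histone, was called higher without HIRA 6 months replicate 5 (1.31, adjusted p = 0.0328).

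The genes that rose most clearly by more than 1 on the log2 scale were Wdr54, Itih5, Cdhr2, Wnk4, Slc2a4, Cd276, Krt23 and Bmp7. Cdhr2, a cadherin of intestinal and renal microvilli, was at 0.203, 0.399, 0.0924, 0.135 and 0.326 CPM in the Rosa26 livers at 3 weeks and at 4.33, 2.58, 3.05, 2.36 and 2.15 CPM in the HIRA livers. At 6 months Cdhr2 was at 0.299, 0.186, 0.043, 0.0927 and 0.321 CPM with the Rosa26 guide and at 8.96, 3.28, 3.19, 4.35 and 0.0508 CPM with the HIRA guide. A gene near the limit of detection in control liver was thus above 2 CPM in 9 of 10 HIRA livers, and replicate 5 at 6 months was at the control level. Its log2 fold change was 4.00 ± 0.48 (SE, adjusted p = 0.000238), and 4.15 (adjusted p = 9.28e-08) without that library.

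Itih5, which encodes a secreted heavy chain of the inter-alpha-trypsin inhibitors that binds hyaluronan, showed the same pattern at a higher level. It was at 11.6, 12.6, 9.38, 15.6 and 13.1 CPM in the Rosa26 livers at 3 weeks and at 33.5, 45.4, 28.4, 33.4 and 37.2 CPM in the HIRA livers. At 6 months Itih5 was at 6.96, 6.80, 4.04, 5.37 and 7.29 CPM with the Rosa26 guide and at 29.2, 25.8, 21.6, 28.8 and 5.69 CPM with the HIRA guide. Replicate 5 again stood within the control range. Itih5 rose by 1.68 ± 0.20 on the log2 scale (SE, adjusted p = 0.000238), and 1.79 without that library. Its relatives Itih1 (-0.31) and Itih3 (-0.66 ± 0.16 SE), both made by hepatocytes for the plasma, fell (adjusted p = 0.0469 and 0.0297), and the median over the 6 tested genes of the family was -0.27. Itih1 was not called without HIRA 6 months replicate 5 (adjusted p = 0.0589). Neither was called without HIRA 3 weeks replicate 3, 4 or 5 or Rosa26 6 months replicate 2, 4 or 5.

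Slc2a4, the insulin-responsive glucose transporter GLUT4 of muscle and fat, was at 0.416 to 1.94 CPM in the 10 Rosa26 livers. It was at 7.74, 7.73, 3.92, 9.72 and 7.68 CPM in the HIRA livers at 3 weeks and at 3.01, 10.2, 5.47, 7.68 and 0.864 CPM at 6 months, so that 9 of 10 HIRA livers lay above all controls. Slc2a4 rose by 2.36 ± 0.35 on the log2 scale (SE, adjusted p = 0.00123). The other 10 glucose transporters tested were not called, among them Slc2a2 (0.17, adjusted p = 0.585), the main glucose transporter of hepatocytes. Krt23, a type I keratin, was at 0.811 to 4.68 CPM with the Rosa26 guide and at 2.72 to 7.51 CPM at 3 weeks with the HIRA guide. At 6 months the HIRA livers were at 9.70, 11.7, 6.51, 10.4 and 1.68 CPM, with replicate 5 the lowest. Its log2 fold change was 1.98 ± 0.30 (SE, adjusted p = 0.00129), although none of 15 markers of biliary cells, among them Krt19 and Sox9, was called (median 0.18). That median was 0.007 at 3 weeks and 0.194 at 6 months. On average it was 0.068 without HIRA 6 months replicate 3 and 0.242 without HIRA 6 months replicate 5.

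Wnk4, a kinase that regulates ion transport, rose by 1.80 ± 0.25 on the log2 scale (SE, adjusted p = 0.000839), and the arms did not overlap at either time. Cd276, an immune checkpoint ligand, rose by 1.19 ± 0.18 (adjusted p = 0.00123), and Bmp7, a growth factor of the BMP family, by 1.17 ± 0.18 (adjusted p = 0.00132). Wdr54 was at 1.41 to 2.79 CPM in the Rosa26 livers and at 3.14 to 5.47 CPM in the HIRA livers, with no overlap between the arms. It had the smallest adjusted p of the named genes (1.03 ± 0.11 SE, adjusted p = 0.000133). Wdr54 overlaps Rtkn on the opposite strand, which had 205% of its counts and was itself called higher. Whether counting used the strand is not stated, so reads of these genes may not be separated.

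**Figure D2:**
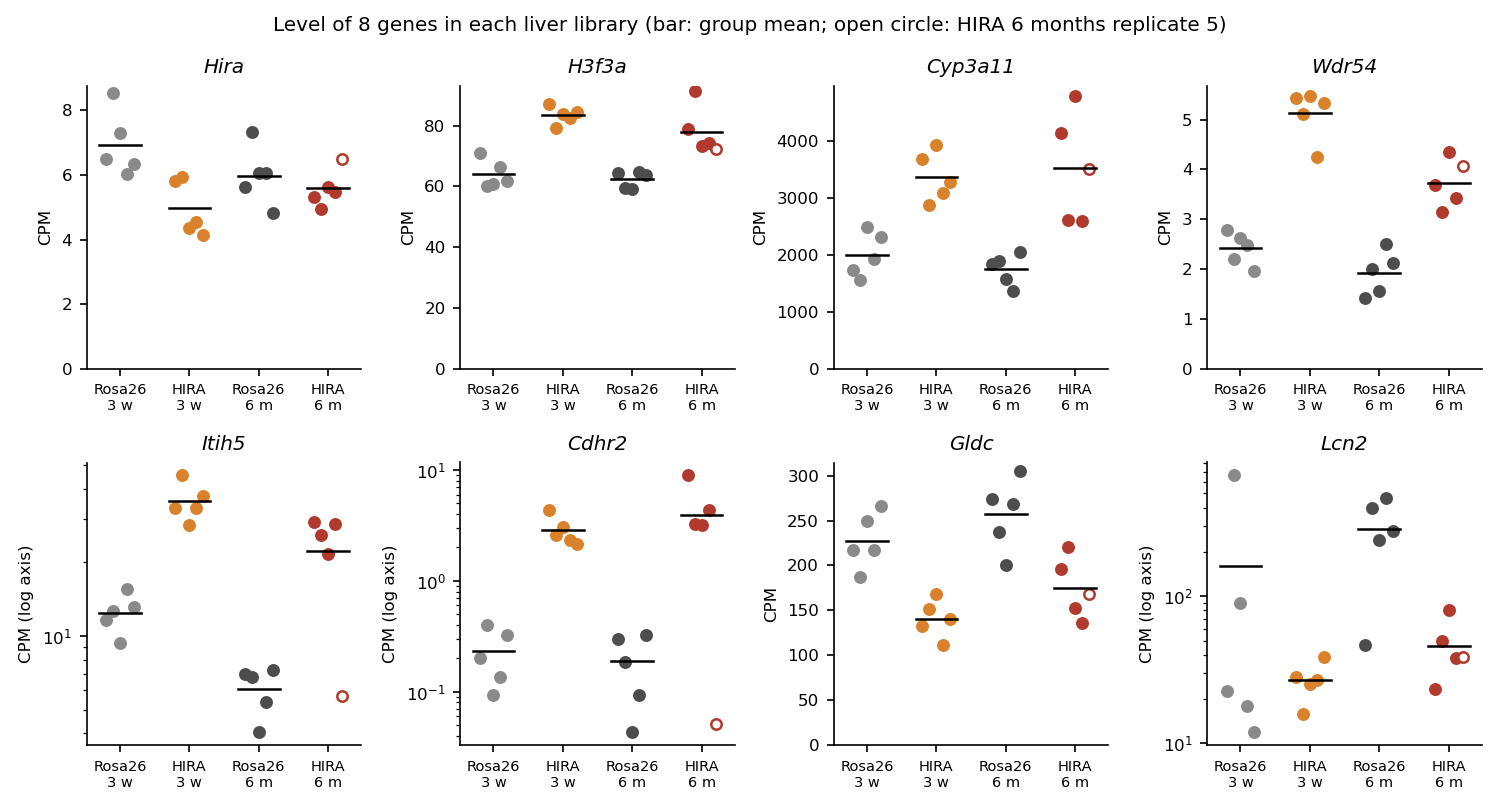
CPM of 8 genes in each of the 20 libraries by group, with a bar at the mean of each group and an open circle for HIRA 6 months replicate 5 (linear axes from 0 for Hira, H3f3a, Cyp3a11, Wdr54 and Gldc, log axes for Itih5, Cdhr2 and Lcn2). H3f3a, Cyp3a11 and Wdr54 did not overlap between the arms at either time, while the open circle lies with the controls for Itih5 and Cdhr2.

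The genes that fell most clearly by more than 1 on the log2 scale were Loxl4, Orm3, Slc13a3, Bmper, Adcy1, Srgap3, Apcs and Lcn2. Loxl4, a lysyl oxidase that cross-links matrix collagen, was at 11.7, 21.7, 7.77, 7.57 and 9.07 CPM with the Rosa26 guide at 3 weeks and at 1.57, 3.65, 3.87, 1.75 and 2.67 CPM with the HIRA guide. At 6 months Loxl4 was at 5.93, 8.62, 2.02, 8.02 and 14.4 CPM with the Rosa26 guide and at 3.79, 3.55, 3.15, 2.49 and 1.32 CPM with the HIRA guide. All HIRA livers were below all controls at 3 weeks, and at 6 months 1 control lay among them. For Loxl4 the log2 fold change was -1.76 ± 0.29 (SE, adjusted p = 0.00275). Loxl4 was the only called gene of 25 markers of stellate cells and matrix, beside 2.62% called over all genes. Of these markers 24 had a positive fold change (median 0.28, which was 0.043 at 3 weeks and 0.47 at 6 months). With HIRA 6 months replicate 3 left out, 18 of them were positive and the median was 0.07.

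Slc13a3, a dicarboxylate transporter, fell by 1.05 ± 0.18 (SE, adjusted p = 0.00322), and Bmper, a secreted modulator of BMP signaling, by 1.68 ± 0.33 (SE, adjusted p = 0.00803). Adcy1, an adenylate cyclase, fell by 1.85 ± 0.39 (SE, adjusted p = 0.0104). Srgap3, a GTPase-activating protein, was at 5.82 to 15.0 CPM in the Rosa26 livers, at 3.82 to 8.71 CPM in the HIRA livers at 3 weeks and at 1.68 to 8.33 CPM at 6 months. Its log2 fold change was -1.25 ± 0.26 (SE, adjusted p = 0.0106). Srgap3 lies within 500 kb of Gt(ROSA)26Sor (chromosome 6, 113067428 to 113077333), the locus that is cut in the control arm. It was the only called gene of 28 tested in that window, beside 2.62% called over all genes. Whether the cut has a part in the change of Srgap3 was not tested. Of 26 genes within 500 kb of Hira none was called, and the smallest adjusted p among them was 0.152 (Rtl10, 0.53).

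Liver enzymes were found on both sides. Cyp3a11, the main mouse CYP3A enzyme and a target of the xenobiotic receptors, was at 1730, 1550, 2480, 1920 and 2310 CPM in the Rosa26 livers at 3 weeks and at 3680, 2870, 3920, 3090 and 3280 CPM in the HIRA livers. At 6 months Cyp3a11 was at 1840, 1880, 1570, 1360 and 2050 CPM with the Rosa26 guide and at 4130, 2600, 4790, 2590 and 3500 CPM with the HIRA guide. The arms were separate at both times, and the log2 fold change was 0.89 ± 0.12 (SE, adjusted p = 0.000839). Cyp3a11 has close relatives in a gene cluster, so some of its reads may be shared. With all libraries it was the only called gene of 33 drug-metabolizing P450 enzymes (median 0.12), a share near the 2.62% over all genes. Cyp3a11, Cyp2a4 and Cyp2d9 were called higher and Cyp2c40 and Cyp2c70 lower when HIRA 6 months replicate 5 was left out. Cyp2b10, a target of the receptor CAR, was at 0.41 (adjusted p = 0.435). Of 41 conjugation enzymes Gsta4 rose (0.63, adjusted p = 0.00509) and Gstm2 fell (-0.50, adjusted p = 0.0289), beside 2.62% called over all genes and a median of 0.007. Gsta1 was also called higher without HIRA 6 months replicate 5 (1.80, adjusted p = 0.0492), and Gstm2 lost its call in 6 of the 20 fits that left out 1 library.

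The 250 bases before the start of Cyp3a11 (RefSeq, GRCm38.p6, minus strand, chr5:145879855-145880104) are shown because this was the most abundant of the named genes that rose. The capitals mark the letters CAAAGTCCA, a motif of the HNF4A type, 109 bases before the start.
Cyp3a11: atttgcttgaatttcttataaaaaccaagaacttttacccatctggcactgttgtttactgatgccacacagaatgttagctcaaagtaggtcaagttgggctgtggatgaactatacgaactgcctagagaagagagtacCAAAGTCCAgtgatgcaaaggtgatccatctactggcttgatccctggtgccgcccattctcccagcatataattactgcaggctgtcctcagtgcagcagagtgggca

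These letters stood on either strand in 0.475% of 32851 promoters (250 bases before to 50 after the start) and in 0.531% of the promoters of tested genes. They stood in 0.631% of 317 promoters of called higher genes and in 0 of 268 promoters of called lower genes. The shares rest on few promoters. Hnf4a itself was at 0.10 (adjusted p = 0.543), and none of 25 hepatocyte transcription factors was called, with a median of -0.013.

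Amino acid metabolism leaned to the lower side. Of 36 genes of the urea cycle and amino acid catabolism, 5 fell and 0 rose, beside 1.26% lower over all genes, 30 had a negative fold change, and the median was -0.17, which was -0.037 at 3 weeks and -0.30 at 6 months. The count was 3 without Rosa26 3 weeks replicate 2 or 5, HIRA 3 weeks replicate 5, or Rosa26 6 months replicate 1, 4 or 5. Gldc, the glycine decarboxylase of the glycine cleavage system, was at 217, 187, 249, 217 and 266 CPM in the Rosa26 livers at 3 weeks and at 133, 151, 168, 111 and 140 CPM in the HIRA livers. At 6 months it was at 274, 237, 200, 269 and 305 CPM with the Rosa26 guide and at 196, 221, 153, 136 and 168 CPM with the HIRA guide. The arms were separate at 3 weeks and overlapped in 1 HIRA liver at 6 months. Its log2 fold change was -0.62 ± 0.10 (SE, adjusted p = 0.00196). The others that fell were Sdsl (-0.50), a serine dehydratase, Cbs (-0.34), the first enzyme of transsulfuration, Slc25a15 (-0.32), the mitochondrial ornithine carrier, and Amdhd1 (-0.29) of histidine breakdown, with adjusted p-values of 0.0135 to 0.0436. Gldc, Cbs, Slc25a15 and Amdhd1 were among the 1291 genes with a mean of 107 CPM or more. Of those 1291 genes 65 fell, and their median was -0.063. The urea cycle enzymes Otc (-0.20, adjusted p = 0.179), Ass1 (-0.05, 0.93) and Cps1 (-0.03, 0.947) were not called. Slc27a5, which couples bile acids to coenzyme A, fell (-0.33, adjusted p = 0.00852). It was the only called gene of 29 for bile acids, beside 1.26% lower over all genes. Cyp2c70 was a second without HIRA 6 months replicate 5. Tm7sf2 fell (-0.42, adjusted p = 0.0432), beside the same share, as the only called gene of 24 for sterol synthesis and uptake. Of these 24 genes 21 were negative (median -0.18). Tm7sf2 was not called without HIRA 6 months replicate 5, nor was any other gene of that list.

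Of 16 genes of the growth hormone and IGF axis, 1 was called, and 10 were negative (median -0.11). This was Igf1, the circulating growth factor made by hepatocytes, which fell (-0.37 ± 0.08 SE, adjusted p = 0.0121). With 1 library left out the number called lower was 1 to 3, and without HIRA 6 months replicate 5 the second was Bcl6 (-0.84, adjusted p = 0.0381; -0.25 and adjusted p = 0.791 with it). Of 23 genes of gluconeogenesis and glycogen, Irs2, an insulin receptor substrate, fell (-0.79, adjusted p = 0.0191) and Pck2, the mitochondrial PEP carboxykinase, rose (0.52, adjusted p = 0.038), with a median of -0.05. Pck2 lost its call in 16 of the 20 fits that left out 1 library, but not without HIRA 6 months replicate 5 (0.61, adjusted p = 0.000286), where Pcx was also called lower (-0.34, adjusted p = 0.0258). These shares lay beside 1.26% lower and 1.37% higher over all genes. Of 22 tested genes of BMP signaling and iron, Bmper fell and Tsku, a secreted BMP inhibitor, rose (1.24, adjusted p = 0.0493), with a median of 0.039. These counts stand beside the same shares over all genes, and the list does not hold Bmp7, which rose. Tsku was not called without HIRA 6 months replicate 5 (1.11, adjusted p = 0.0563). Id1, a direct BMP target, was at 0.72 (adjusted p = 0.0543) and Hamp, which encodes hepcidin, at -0.30. Of 20 imprinted genes Peg10 (1.62, adjusted p = 0.0215) and its neighbour Sgce (0.53, adjusted p = 0.0404) rose, beside 1.37% higher over all genes, and the median was 0.16. That median was -0.06 at 3 weeks and 0.27 at 6 months, and -0.049 on average without HIRA 6 months replicate 3. Sgce lost its call in 11 of the 20 fits that left out 1 library. Of 22 p53 targets only Fas, a death receptor, was called, and it fell (-0.38, adjusted p = 0.0116), beside 1.26% lower over all genes. No gene was called among 28 of the cell cycle, 27 of the interferon response, 22 of DNA repair, 14 heat shock proteins, 27 of fatty acid oxidation or 22 of lipogenesis. Of the interferon genes 22 were negative (median -0.13, which was -0.37 at 3 weeks and 0.07 at 6 months). That median was -0.038 on average without Rosa26 3 weeks replicate 3 and -0.201 without Rosa26 6 months replicate 1. Of the cell cycle genes 20 were positive (median 0.16, and 0.033 without HIRA 6 months replicate 3). Without HIRA 6 months replicate 5, Ccnb2, a mitotic cyclin (0.95, adjusted p = 0.0457), and the BMP targets Id1 (0.79, 0.0256) and Id3 (0.47, 0.0489) were called higher, and Agpat2, of triglyceride synthesis (-0.34, 0.0229), lower.

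Of 16 acute phase proteins, which hepatocytes secrete during inflammation, 6 fell and 0 rose with the HIRA guide, beside 1.26% lower over all genes, all 16 had a negative fold change, and the median was -0.77. Saa2, an inducible serum amyloid, was at 26.1, 4020, 361, 58.3 and 26.4 CPM in the Rosa26 livers at 3 weeks and at 269, 30.1, 119, 49.4 and 155 CPM in the HIRA livers. At 6 months it was at 253, 2500, 1270, 1750 and 3170 CPM with the Rosa26 guide and at 88.9, 126, 374, 49.8 and 372 CPM with the HIRA guide. The arms overlapped at both times, and the controls spanned a far wider range than the HIRA livers. For Saa2 the log2 fold change was -3.00 ± 0.77 (SE, adjusted p = 0.038). Saa1, a near copy of Saa2 that may share its reads, was at -2.46 (adjusted p = 0.0578).

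Lcn2, an iron-siderophore binding protein, was at 22.7, 664, 90.4, 18.0 and 11.9 CPM in the Rosa26 livers and at 28.2, 15.9, 25.2, 26.8 and 38.4 CPM in the HIRA livers at 3 weeks. At 6 months it was at 46.3, 401, 243, 465 and 277 CPM with the Rosa26 guide and at 23.5, 49.5, 80.6, 37.9 and 38.8 CPM with the HIRA guide. At 3 weeks the controls other than replicates 2 and 3 lay within or below the range of the HIRA livers. Its log2 fold change was -2.61 ± 0.58 (SE, adjusted p = 0.0147). Orm3, an acid glycoprotein of a family with close copies (-2.31 ± 0.39 SE, adjusted p = 0.00287), Apcs, serum amyloid P (-1.08 ± 0.23, 0.0122), Hp, haptoglobin (-0.84 ± 0.22, 0.0383), and Crp, C-reactive protein (-0.51 ± 0.10, 0.00852), fell as well.

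The count of acute phase genes called varied with the libraries and the tool. Without Rosa26 3 weeks replicate 2, 4 of 16 genes were called and the median was -0.53, and with each of the other libraries left out in turn the median lay between -0.84 and -0.71. The count was also 4 without HIRA 3 weeks replicate 2, 3, 4 or 5, Rosa26 6 months replicate 2 or 4, or HIRA 6 months replicate 2 or 4, and 9 without Rosa26 3 weeks replicate 4 or 5. It was 2 with FPKM, 3 with limma-voom and 12 with DESeq2, and without HIRA 6 months replicate 5 it was 7 with a median of -0.83. As a mean of centred log2 CPM over the 16 genes, the Rosa26 livers were at -0.59, 1.74, 0.36, -0.53 and -0.77 at 3 weeks and at 0.01, 1.18, 0.68, 1.2 and 0.85 at 6 months. The HIRA livers were at -0.13, -0.88, -0.40, -0.59 and -0.40 at 3 weeks and at -0.56, -0.25, -0.30, -0.54 and -0.10 at 6 months. At 6 months all controls thus lay above all HIRA livers, whereas at 3 weeks they lay on both sides.

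Neutrophil markers also had negative fold changes. This held for all 12 (median -1.30), and Ngp, a granule protein, fell (-2.90, adjusted p = 0.0368). Their summed level was 8.56 to 73.0 CPM with the Rosa26 guide and 6.15 to 12.3 CPM with the HIRA guide at 3 weeks, and 6.21 to 55.2 and 4.98 to 21.6 CPM at 6 months. The median of the sums at 6 months was 7.51 CPM with the Rosa26 guide and 12.3 CPM with the HIRA guide. The highest value of the controls came from replicate 3 at each time. Ngp was the only marker called of the 12, beside 1.26% lower over all genes. None was called without Rosa26 3 weeks replicate 3 (median -0.68) or Rosa26 6 months replicate 3 (median -0.997). The same held without any 1 of the 5 HIRA libraries of 3 weeks, without HIRA 6 months replicate 2 or 3, and with DESeq2, limma-voom, filterByExpr, the replicate block within time or FPKM. Ly6g, which marks mature neutrophils, was at or near 0 (mean of 0.0245 CPM over all libraries), and S100a9 averaged 3.75 CPM. The part of these cells in the decrease of the acute phase genes was not tested. Ccl9, a chemokine, fell as well (-0.54, adjusted p = 0.00675). No gene was called among 18 markers of Kupffer cells and macrophages, 17 of sinusoidal endothelium, 18 of T and NK cells and 12 of B and plasma cells. Of these markers 17 of T and NK cells (median 0.31), 16 of endothelium (0.19) and 9 of B and plasma cells (0.50) were positive, as were 6 of Kupffer cells and macrophages (-0.049). The Kupffer cell and macrophage median was -0.239 without HIRA 6 months replicate 4 and 0.372 without Rosa26 6 months replicate 3. With FPKM 15 of these genes were positive. The T and NK cell median was 0.166 without HIRA 6 months replicate 3 and 0.552 without Rosa26 6 months replicate 3. The summed levels of each of these lists overlapped between the arms at both times, as for endothelium with 459 to 623 CPM against 494 to 586 CPM in the HIRA livers at 3 weeks and 298 to 535 against 372 to 582 CPM at 6 months. Of 15 hepatocyte markers 1 rose and 1 fell (median -0.13), beside 2.62% called over all genes. Their summed level had a median of 144000 CPM with the Rosa26 guide and 161000 CPM with the HIRA guide at 3 weeks. At 6 months these medians were 120000 and 147000 CPM. The part of other cell types in the lower values of some genes of hepatocytes was not tested. Of the B and plasma cell markers 3 were called higher without HIRA 6 months replicate 5, where 399 of all 22703 genes were called higher. Among them were Cd79a (0.76, adjusted p = 0.0345) and Cd79b (0.76, adjusted p = 0.0149), which encode chains of the B cell receptor. Another list held 31 plasma proteins, among them Fga, Fgb and Fgg, and was not kept free of acute phase proteins. Of these 31, 3 fell, among them Itih1 and Itih3, beside 1.26% lower over all genes. In that list 25 were negative and the median was -0.17. None was called without HIRA 3 weeks replicate 3, 4 or 5 or Rosa26 6 months replicate 2, 4 or 5, or with FPKM, and 9 were called lower with DESeq2. Alb, albumin, was at 0.31 (adjusted p = 0.158).

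Genes of the circadian clock that peak toward evening had positive fold changes, with larger values at 3 weeks. All 10 were positive with a median of 0.81, which was 1.45 at 3 weeks and 0.12 at 6 months, and 1 of them was called, beside 1.37% higher over all genes. The count was 4 without HIRA 6 months replicate 1 or with averaged group means, 5 with DESeq2, and 0 with limma-voom, the replicate block within time or FPKM. This was Ciart, a repressor within the clock, at 0.456, 0.449, 0.416, 0.676 and 0.279 CPM in the Rosa26 livers and at 3.46, 3.70, 1.31, 15.1 and 4.72 CPM in the HIRA livers at 3 weeks. At 6 months Ciart was at 2.05, 0.746, 4.78, 1.67 and 1.28 CPM with the Rosa26 guide and at 0.43, 6.92, 2.99, 6.65 and 6.81 CPM with the HIRA guide. The arms were separate at 3 weeks and overlapped at 6 months. The log2 fold change was 2.22 ± 0.52 (SE, adjusted p = 0.0229), with 3.62 (adjusted p = 0.0379) at 3 weeks and 1.16 (adjusted p = 0.361) at 6 months. Dbp, a transcription factor with a strong daily rhythm, was at 2.17 (adjusted p = 0.12) and the repressor Per1 at 0.85 (adjusted p = 0.10).

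The 6 genes of the opposite phase, among them Arntl (-0.59, adjusted p = 0.312) and Npas2 (-0.96, 0.244), were all negative and none was called, while 2 were called lower without HIRA 6 months replicate 1. Their median was -0.44, which was -0.87 at 3 weeks and -0.15 at 6 months. Of 16 other genes under the control of the clock Usp2 and Wee1 rose, beside 1.37% higher over all genes (median 0.19), and Por was also called higher without HIRA 6 months replicate 5 (0.43, adjusted p = 0.0256). Usp2, a deubiquitinase, was at 4.05, 3.09, 2.45, 3.88 and 3.86 CPM in the Rosa26 livers and at 17.8, 11.3, 5.95, 34.9 and 11.9 CPM in the HIRA livers at 3 weeks. At 6 months it was at 4.65, 3.87, 11.7, 4.08 and 3.67 CPM with the Rosa26 guide and at 7.70, 20.0, 9.33, 22.3 and 17.9 CPM with the HIRA guide. The log2 fold change of Usp2 was 1.84 ± 0.30 (SE, adjusted p = 0.00238), and that of Wee1, a kinase that restrains entry into mitosis, was 1.12 ± 0.25 (adjusted p = 0.0176). The labels give no time of day for the collection of the livers, so its part in these values was not tested.

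The bases before the start of Ciart (RefSeq, GRCm38.p6, minus strand, chr3:95882229-95882478) are shown as the promoter of the clock gene that was called. The capitals mark the E-box CACGTG, the letters bound by CLOCK and BMAL1, which stands 116, 58 and 44 bases before the start.
Ciart: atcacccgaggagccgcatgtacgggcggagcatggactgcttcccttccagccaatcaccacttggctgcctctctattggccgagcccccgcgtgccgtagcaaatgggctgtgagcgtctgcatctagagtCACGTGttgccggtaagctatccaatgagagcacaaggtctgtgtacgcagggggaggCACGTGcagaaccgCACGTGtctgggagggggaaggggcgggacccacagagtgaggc

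The E-box stood in 5 of 11 promoters of the evening genes (45.5%), in 7.15% of all 32851 promoters and in 8.90% of those of tested genes. Among the called genes it stood in 10.7% of the promoters of higher genes and in 9.70% of those of lower genes, which is close to the share over tested genes.

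**Figure D3:**
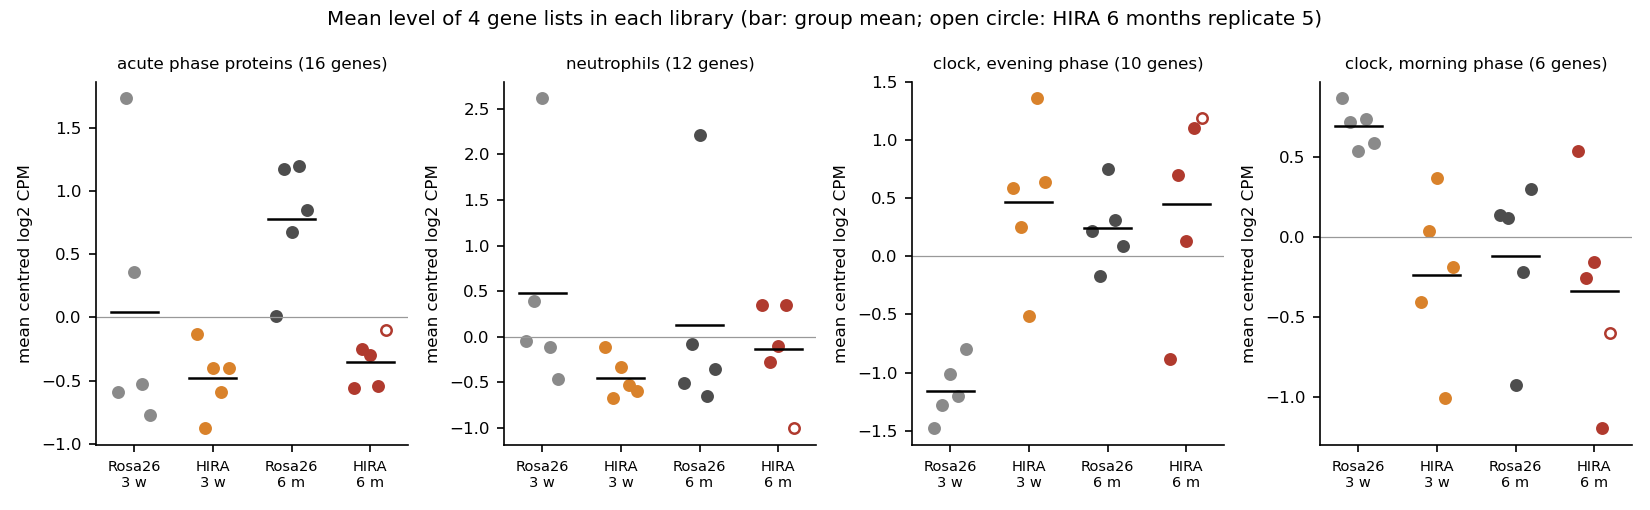
Mean centred log2 CPM of the acute phase genes (16), neutrophil markers (12), evening clock genes (10) and morning clock genes (6) in each library by group. At 6 months every Rosa26 liver lies above every HIRA liver for the acute phase genes, and at 3 weeks the evening genes are separate between the arms.

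Beside these groups, many of the clearest changes were small and even across animals. Among called genes with an absolute log2 fold change of 1 or less, the smallest p-values for higher genes belonged to Zfp703 (0.63), Cdc42bpg (0.43), Cyp3a11, H3f3a, Chpf (0.98), Trim8 (0.39), Car14 (0.78) and Dlgap4 (0.34), with adjusted p-values of 0.000839 to 0.00228. Chpf takes part in chondroitin synthesis, Trim8 is a ubiquitin ligase, and Car14 is a membrane-bound carbonic anhydrase that overlaps Aph1a on the opposite strand (117% of its counts). Those for lower genes belonged to Hint3 (-0.66), Atraid (-0.35), Lyrm2 (-0.53), Polr3gl (-0.65), Pid1 (-0.46), Gldc, Rdh7 (-0.44) and Mbl1 (-0.58), with adjusted p-values of 0.000839 to 0.00228. Polr3gl is a subunit of RNA polymerase III, Rdh7 a retinol dehydrogenase and Mbl1 a mannose-binding lectin of the plasma. Atraid was at 66.7 to 78.3 CPM with the Rosa26 guide and at 49.3 to 61.4 CPM with the HIRA guide, without overlap.

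Averaging over both times gave calls that neither time gave alone. When the 4 groups were fitted by their own means, 45 genes (0.197%) were called at 3 weeks and 299 (1.31%) at 6 months, and 378 of the 600 (63.0%) were called at neither. The median standard error of genes with at least 1 CPM was 0.0932 for the average and 0.13 at each time. The 378 genes had a median absolute log2 fold change of 0.41 and the other called genes of 0.53. Of the 600 genes 597 had the same sign at both times, which the averaging itself favours. In the other direction, 9 genes called at 3 weeks and 103 called at 6 months were not called on average.

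The guide effects at the 2 times were also compared directly. No gene differed between them at an FDR of 0.05 by edgeR (0.00%, smallest adjusted p = 0.614). At an unadjusted p under 0.05 there were 1514, of which 69 were among the 600. Without HIRA 6 months replicate 4, 1 gene passed, Plin4, a lipid droplet protein (difference of 2.45 on the log2 scale, adjusted p = 0.0331), which was at 2.22 (adjusted p = 0.614) with all libraries. The called gene Car14 was at 1.19 at 3 weeks and 0.37 at 6 months (adjusted p of the difference = 0.614).

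**Figure D4:**
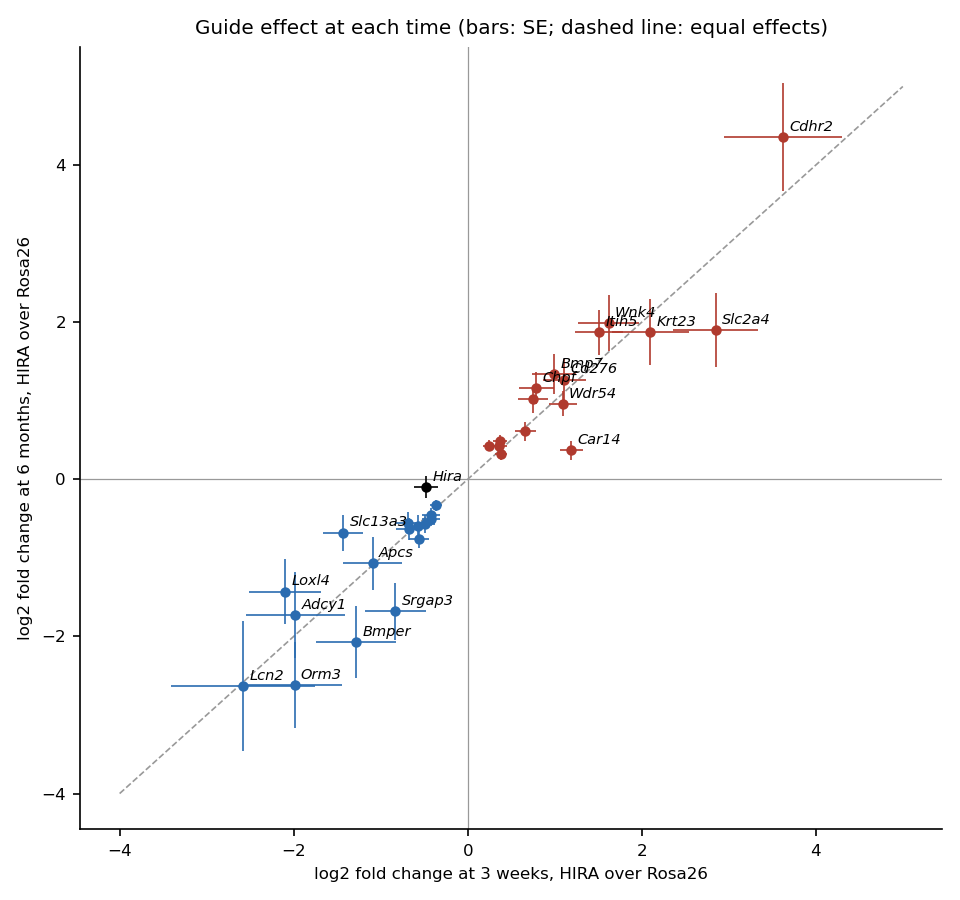
Log2 fold change at 3 weeks (horizontal) and at 6 months (vertical) with standard errors for the genes chosen by the naming rule, with a dashed line where both are equal. Slc13a3 (-1.43 and -0.68) and Car14 (1.19 and 0.37) lie away from the line, while H3f3a (0.38 and 0.32) lies close to it.

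For 60 genes (0.262%) all HIRA livers lay on the same side of all Rosa26 livers at both times, 39 higher and 21 lower, and 59 of them were called. Another 2 genes were separate at both times in opposite directions. The 59 genes had a median absolute log2 fold change of 0.52, and 50 of them lay at 1 or less. The following were picked from the 59 after their values were seen. Higher were Olig1 (1.46, adjusted p = 0.00517), a transcription factor of oligodendrocytes, Epb41l1 (1.28), a protein of the membrane skeleton, Gal3st1 (1.04), the cerebroside sulfotransferase, Rnf145 (0.91), a ubiquitin ligase of the endoplasmic reticulum, Adcy6 (0.48), an adenylate cyclase, Tgfa (0.41), a ligand of the EGF receptor, and Chd1 (0.27), a chromatin remodeler. Lower were Aqp8 (-0.84, adjusted p = 0.00313), an aquaporin of hepatocytes, Nrp2 (-0.56), a neuropilin, Agmat (-0.42), an agmatinase, Mrps25 (-0.41) and Mrpl44 (-0.21), proteins of the mitochondrial ribosome, and Coq3 (-0.34), an enzyme of ubiquinone synthesis. Without HIRA 6 months replicate 5 the count was 111 (0.485%), 66 higher and 45 lower.

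The direction of the change differed with the level of expression. Genes were ordered by their mean CPM and the 12903 genes with at least 1 CPM divided into 10 bins of equal number. In the top bin, from 107 CPM upward, 7 genes rose and 65 fell, and the median log2 fold change was -0.063. In the lowest bin, from 1.0 to 1.97 CPM, 25 rose and 8 fell, and the median was 0.09. That median was 0.028 at 3 weeks and 0.141 at 6 months, 0.035 on average without HIRA 6 months replicate 3, 0.135 without Rosa26 6 months replicate 3 and 0.033 with FPKM values. The median of the top bin was -0.052 at 3 weeks and -0.079 at 6 months, and -0.083 on average without HIRA 6 months replicate 5. Of the called lower genes 70 (24.4%) and of the called higher genes 8 (2.56%) had 100 CPM or more, against 5.99% of all genes tested. Over 30 other settings on the counts, the top bin held 5 to 32 higher and 41 to 214 lower genes, and its median stayed between -0.089 and -0.049. With FPKM values 19 were higher and 41 lower. These shifts are small beside the changes of single genes, and the order by level used the same libraries as the fold changes. Cytosolic ribosomal protein genes, which are highly expressed, were all 39 negative (median -0.14, and 35 of 39 with FPKM). Only Rpl10 was called (-0.24, adjusted p = 0.0412), beside 1.26% lower over all genes.

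**Figure D5:**
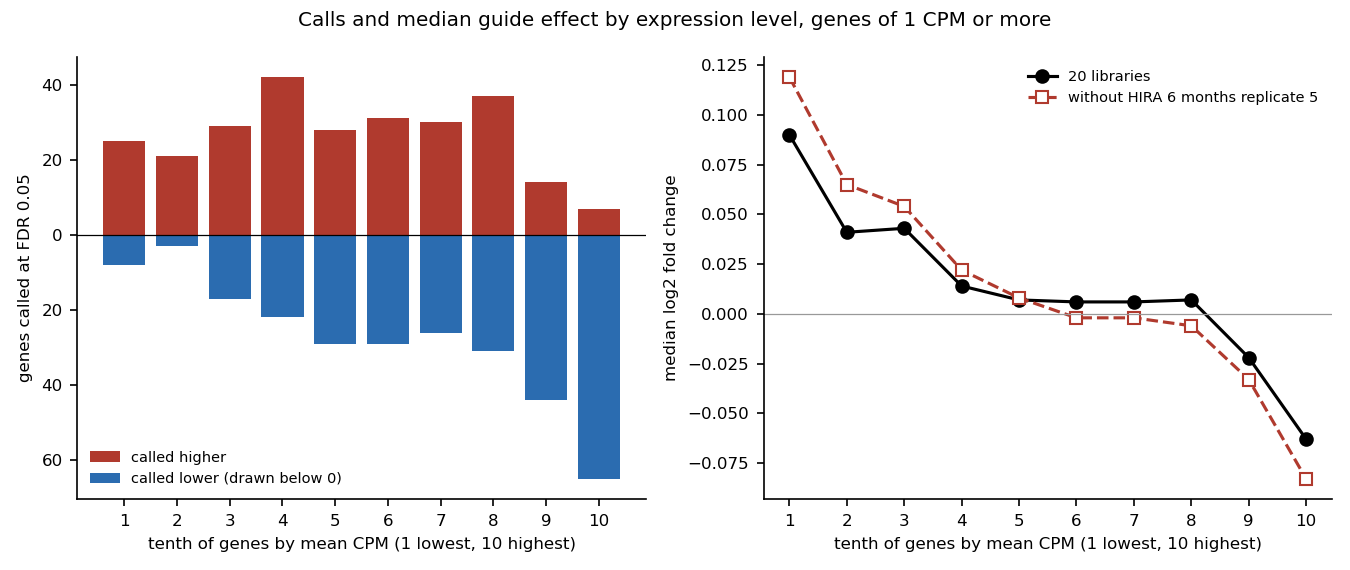
Left, number of called higher and lower genes in each of 10 bins of the 12903 genes with a mean of at least 1 CPM, from the lowest to the highest level. Right, median log2 fold change of each bin with all libraries and without HIRA 6 months replicate 5, falling from 0.09 to -0.063 and from 0.119 to -0.083.

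Called lower genes also had shorter exon sequence. Among genes with at least 1 CPM, the median exon length was 3130 bases for called lower genes, 4270 bases for called higher genes and 4280 bases for all genes. Their median levels were 32.9, 12.5 and 15.2 CPM. Protein-coding genes made up 91.3% of the higher and 90.5% of the lower genes, close to the 90.8% of all genes at that level.

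Libraries were also left out of the fit and then set against it. With each HIRA library left out in turn, 85.4 to 93.7% of the genes called in the other 19 libraries deviated in that library toward the HIRA side, other than in HIRA 6 months replicate 5, where the share was 70.7% and the median size of the deviation was 0.59 of the fitted change. For the Rosa26 libraries the shares were 31.5 to 73.4%, over 50% in 8 of 10, so they overlapped with the share of HIRA 6 months replicate 5 and lay below those of the other HIRA libraries. The deviation was taken from the other Rosa26 libraries of the same time, which had also helped to choose the genes.

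Some called genes rested on HIRA 6 months replicate 5 alone. Cyp4a12a, a fatty acid hydroxylase of male liver, was at 256 CPM there and at 0.0911 to 0.166 CPM in the other HIRA livers of 6 months. Its fitted log2 fold change of 8.94 (adjusted p = 0.0156) was 0.81 (adjusted p = 0.552) without that library, and its close relative Cyp4a12b was likewise at 16.6 CPM in that library and at most 0.0911 CPM in the other HIRA livers of 6 months. The 14 male-biased genes had a median of 1.62 with that library and of 0.016 without it. Of the 600 genes 51 were not called without it, and 250 genes were called only without it.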

How the data were processed

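Bulk liver RNA-seq libraries of 10 mice with a HIRA guide and 10 with a Rosa26 guide were compared. Per the labels, the authors deposited raw counts per gene (mm10, which is GRCm38; STAR, HTSeq and Cufflinks are named in the submitters' processing notes and HOMER in the methods, and the counting of strand and of multiply mapped reads is not given in the sources used here). The authors also deposited FPKM values, which were used only as an alternative on the log2(FPKM + 1) scale. Groups and replicate numbers came from the sample titles.

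Of 55421 identifiers, 22854 had no count and 9700 had 1 to 9 counts. The remaining 22867 were fitted with edgeR 4.0.16 (TMM, glmQLFit, glmQLFTest) on time plus guide, with Benjamini-Hochberg adjustment over all of them. The common biological coefficient of variation was 0.221. The standard error of a log2 fold change is its size divided by the square root of F. Log2 CPM used a prior count of 2. Group means in a second fit gave the effect at each time and their difference. Totals of 19916430 to 24079736 counts limit precision for genes under about 1 CPM most. No pair of replicates agreed within sampling noise, and each library was counted once.

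The members and the gene lists were chosen with earlier results of these data known. A list is described by the number of its members called in each direction and its median, beside all genes. Named genes were Hira, up to 8 genes per direction with the smallest p among those past an FDR of 0.05 and an absolute log2 fold change above 1, up to 8 per direction among the smaller changes, all with at least 1 CPM, called members of 52 lists and up to 4 other members of a list. Genes of the pattern of no overlap at both times were picked after their values were seen, as were Plin4 and Rtl10. Gene models without a symbol proper (Gm numbers, Rik and clone names) were only counted, and some genes of the lists are not reported here.

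Coordinates are GRCm38, 1-based, from GENCODE M21, to which 98.7% of identifiers matched with their version. Promoters came from RefSeq (GRCm38.p6), 250 bases before to 50 after the start. Motifs were searched on both strands, as CACGTG (E-box), CAAAGTCCA (HNF4A type), and TTATGTAA or TTACGTAA (D-box).

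Alternatives were RLE scaling, no filter, filterByExpr, DESeq2 1.42.0, limma-voom (limma 3.58.1), averaged group means, no time term, blocks by replicate number, FPKM with limma, and each library left out. DESeq2 without HIRA 6 months replicate 5 and the counts by level and by list under each setting, were added after seeing the data. The software was matplotlib 3.10.9, scipy 1.17.1, pandas 2.3.3 and numpy 2.4.6 under Python 3.11.15, and R 4.3.3.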

Additional observations from a re-analysis of the deposited data

Results flagged for a closer look

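Single libraries that stood apart from the other 4 of their group were sought among 64 named genes by Dixon's test, whose critical value for 5 samples is 0.71, in groups whose highest library had at least 1 CPM. It marked 24 of 244 gene and group combinations, and chance marks about 1 in 20 groups. The values below are CPM of that library, followed by the range of the other 4.

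HIRA 6 months replicate 5, the library whose Y-chromosome and Xist counts went against its label, accounted for the values of Itih5 (5.69 against 21.6 to 29.2), Cdhr2 (0.0508 against 3.19 to 8.96), Cd276 (2.90 against 5.56 to 7.04), Pck2 (4.12 against 11.0 to 12.8), Cyp4a12a (256 against 0.0911 to 0.166) and Cyp4a12b (16.6 against 0 to 0.0911). In the HIRA livers, Wnk4 of 6 months replicate 1 was at 14.2 against 4.01 to 4.87, and Asgr1, the asialoglycoprotein receptor of hepatocytes, of 6 months replicate 3 was at 436 against 510 to 526. At 3 weeks Wdr54 was at 4.25 in replicate 4 against 5.11 to 5.47, Slc2a4 at 3.92 in replicate 3 against 7.68 to 9.72, Zfp703 at 15.5 in replicate 1 against 11.8 to 12.1, and Crp at 280 in replicate 2 against 372 to 416.

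In the Rosa26 livers at 3 weeks, replicate 2 had Apcs at 650 against 135 to 189 and Itih3 at 3460 against 1330 to 1700. Replicate 3 had Ngp at 8.00 against 0.186 to 0.451 and Srgap3 at 5.82 against 12.3 to 14.0. In the Rosa26 livers at 6 months, replicate 3 had Ngp at 4.73 against 0.256 to 0.513, Usp2 at 11.7 against 3.67 to 4.65, Cbs at 562 against 768 to 872, Rdh7 at 951 against 1140 to 1210 and Dlgap4 at 24.4 against 21.7 to 22.4. In the same group Lcn2 was at 46.3 in replicate 1 against 243 to 465, Hint3 at 23.3 in replicate 4 against 19.3 to 20.2, and Atraid at 72.4 in replicate 5 against 69.4 to 70.1.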

How the results depend on the processing

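With all 20 libraries the counts of called genes and of those also past an absolute log2 fold change of 1 were 600 and 104. DESeq2 called 1237 genes (576 higher, 661 lower; 562 shared), and 1453 without HIRA 6 months replicate 5, where Hira was also called (-0.34, adjusted p = 0.0207). With FPKM 9 genes were past both thresholds. The other settings gave 469 to 787 called genes. With single libraries left out, the counts ranged from 391 (without Rosa26 6 months replicate 4) to 799 (without HIRA 6 months replicate 5) and from 79 to 126, the number of genes differing between times from 0 to 1, and the fold change of Hira from -0.33 to -0.24 (adjusted p = 0.0782 to 0.246). Genes without overlap at both times numbered 60, 52 with FPKM and 111 without HIRA 6 months replicate 5. The replicate numbers did not pair the libraries (correlations of -0.12 to 0.30 in 10 pairs, 4 of them over 0.1, and 2 best with their own number). A replicate block gave 612 calls (524 shared, 103 past both), and a replicate block within time 469 (399 shared, 79 past both). Among the named genes Apcs, Ccl9, Igf1 and Peg10 lost their call with FPKM, Lect2 with the block within time, Ciart with limma-voom, that block and FPKM, Lcn2 with limma-voom, both blocks, FPKM and without Rosa26 3 weeks replicate 2, and Cyp4a12a with limma-voom, averaged group means, FPKM and without HIRA 6 months replicate 5. Gstm2 and Itih3 lost it in 7 alternatives, Slc25a15 and Cyp4a12b in 8, and Ngp, Pck2, Saa2, Hp, Sgce, Rpl10, Tm7sf2, Amdhd1, Itih1 and Tsku in 12 to 21, and the cause was not tested. The other called genes of the naming rule kept their call in each alternative that gave a value.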
